A study of Mus musculus with 4 samples.

Results

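Tooth enamel is laid down by ameloblasts, epithelial cells that secrete a soft protein matrix, let mineral grow into it, and then have the proteins cut up and removed so that the mineral can thicken. The matrix is mostly amelogenin, with ameloblastin and enamelin as less abundant structural proteins. It is digested first by the metalloproteinase MMP20 while secretion is under way, and later by the serine protease KLK4 as enamel hardens. Amelotin and ODAM are secreted by ameloblasts in the maturation stage and lie at the interface of cell and enamel. The 8 genes described here are Amelx (amelogenin), Ambn (ameloblastin), Enam (enamelin), Amtn (amelotin), Odam (odontogenic ameloblast-associated protein), Tuft1 (tuftelin) and the proteases Mmp20 and Klk4.

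These genes were followed in a pool of molar teeth from 60 Swiss-Webster pups of both sexes, aged 1 to 10 days after birth, whose RNA was measured on 4 one-colour Affymetrix arrays for the mouse genome. A probe set on such an array is a group of short probes that together report a transcript. Every probe set that the platform annotation assigns to exactly 1 of the 8 genes was taken, which gave 10 probe sets of 34958 that name a single gene, and 8 genes of 18194. Amelx and Enam had a pair of probe sets each, and the other 6 genes had 1. The pups carried no stated mutation and received no treatment. Since the molars of all ages were ground together, secretory and maturation stages were mixed, and in a bulk pool fewer cells of a type and less RNA per cell cannot be told apart. The 4 arrays share 1 RNA pool, so each SD and p-value reflects technical spread. The study planned a comparison with control tissues of another series, which is not analysed here.

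A probe set counted as above background when its signal exceeded, on all 4 arrays, the 95th percentile of 86 probe sets for olfactory, vomeronasal and taste receptor genes on the same array. That threshold ran from 995.6 to 1295 signal units. Over all genes, 51.6% were above background. Of the genes listed for dental and other epithelium, 8 of 8 were above background, led by Krt5 at 117973 ± 13649 (SD, n = 4). Of those listed for odontoblasts, 5 of 5 were, led by Col1a1 at 179786 ± 33243. These 2 lists were not limited to genes particular to teeth. Oral and junctional epithelium genes were above background for 5 of 7, bone and osteoclast genes for 3 of 4 and skeletal muscle genes for 5 of 6, while salivary gland genes passed for 1 of 6 and liver genes for 0 of 4. Signals of different probe sets also depend on the probes, so no order of mRNA amounts is drawn from them.

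The start regions of these genes are shown first, and 7 of the genes have a RefSeq promoter entry. The 5 of them for secreted enamel proteins share a short run of letters there. The 2 protease genes lack it, as do most RefSeq promoters. Each line gives the 100 bases before the annotated start, 5′ to 3′ on the strand of the gene, from RefSeq (GRCm38.p6). Capitals mark GATTGG, which reads CCAATC on the opposite strand and holds the CCAAT box, and TATAAA, a form of the TATA box. The windows are chrX:169187210-169187309 on the minus strand for Amelx, and, on the plus strand, chr5:88455891-88455990 for Ambn, chr5:88487875-88487974 for Enam, chr5:88376008-88376107 for Amtn, chr5:87884910-87885009 for Odam, chr9:7628131-7628230 for Mmp20 and chr7:43881060-43881159 for Klk4.
Amelx: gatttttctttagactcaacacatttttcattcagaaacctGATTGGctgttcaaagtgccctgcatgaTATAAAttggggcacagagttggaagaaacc
Ambn: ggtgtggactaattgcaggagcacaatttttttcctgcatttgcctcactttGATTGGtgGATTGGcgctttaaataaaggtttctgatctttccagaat
Enam: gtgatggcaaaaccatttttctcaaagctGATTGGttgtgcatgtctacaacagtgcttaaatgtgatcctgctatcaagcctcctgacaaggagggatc
Amtn: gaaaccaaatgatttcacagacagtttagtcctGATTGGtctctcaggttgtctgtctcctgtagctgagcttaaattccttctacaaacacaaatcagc
Odam: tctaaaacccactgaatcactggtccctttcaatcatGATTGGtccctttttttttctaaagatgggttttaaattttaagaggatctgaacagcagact
Mmp20: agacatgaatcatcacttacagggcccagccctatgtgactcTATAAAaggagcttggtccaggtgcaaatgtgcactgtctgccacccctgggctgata
Klk4: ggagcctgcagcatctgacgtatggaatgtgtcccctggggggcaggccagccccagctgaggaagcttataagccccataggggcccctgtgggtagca

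The match GATTGG began 59 bases before the start in Amelx, 71 in Enam, 67 in Amtn and 63 in Odam, and Ambn held it at 48 and again at 40. In all 5 genes it lay in the same orientation. Of 32851 RefSeq promoters, 8.62% hold these 6 letters on either strand within 100 bases of the start and 14.6% within 250 bases, and 4.58% hold them within 100 bases in the orientation found here. The shorter CCAAT, searched on both strands, lies inside every one of these matches and is found in 33.8% of promoters within 250 bases. Amelx has a second CCAAT on the opposite strand that overlaps the last base of its TATA match. The run TATAAA, searched on the strand of the gene, began 31 bases before the start in Amelx, 58 in Mmp20 and 137 in Enam, and 7.59% of promoters hold it within 250 bases. Among other measured genes of the same protein family or its gene clusters, 9 have a promoter entry. Of these, 3 hold the 6 letters within 250 bases on either strand, namely Dmp1, Ibsp and Mepe. In Ibsp they begin 55 bases before the start in the same orientation, within the range of the 5 enamel genes. They begin 22 bases before the start in Mepe and 102 in 1 of the 2 Dmp1 promoters, also in that orientation. These letters were chosen after the sequences had been read, and a match is a description of the sequence and not evidence that a factor binds.

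**Figure D1:**
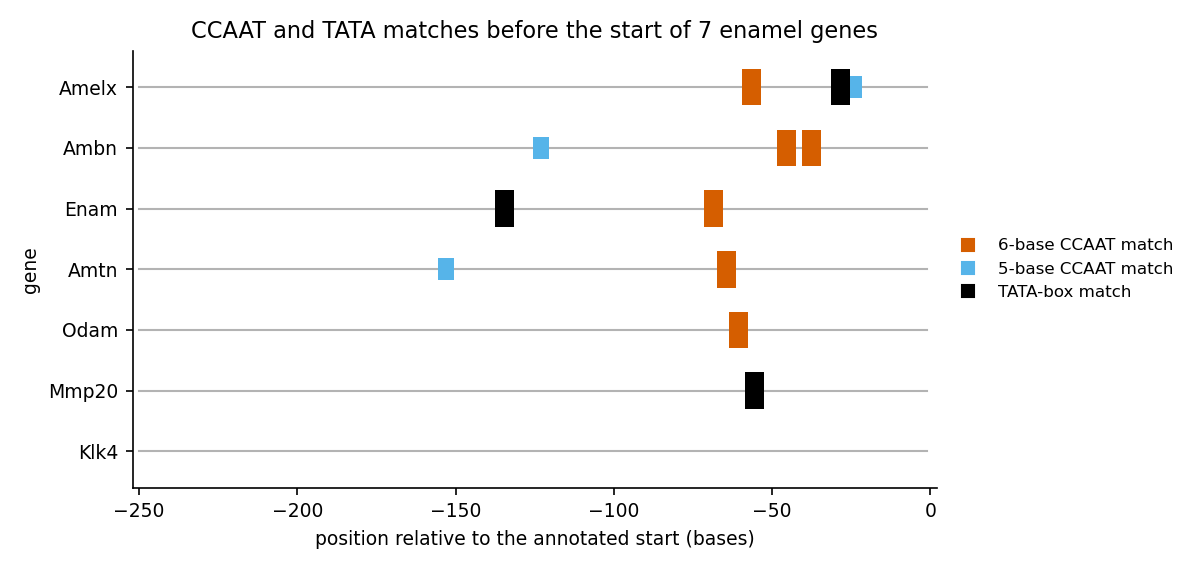
Positions of CCAAT and TATA matches in the 250 bases before the annotated start (x axis, bases relative to the start) of 7 genes (y axis). Orange boxes are matches to CCAATC on either strand, blue boxes shorter CCAAT matches on either strand, and black boxes TATAAA. Orange boxes appear in the 5 genes for secreted enamel proteins, between 71 and 35 bases before the start, and in neither protease gene.

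Of the 10 enamel probe sets, 9 were above background on all 4 arrays, where 42.5% of all probe sets naming a single gene were. By gene, all 8 were above background, against 51.6% of genes. The median log2 signal of the 8 genes, each by its brightest probe set, was 15.65, against 10.69 over all genes. A one-sided limma test of each signal against the threshold, with Benjamini-Hochberg adjustment over 45037 probe sets, called the same 9 probe sets as the count over arrays did, and called 35.2% of all those tested. The tenth was an Enam probe set.

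**Figure D2:**
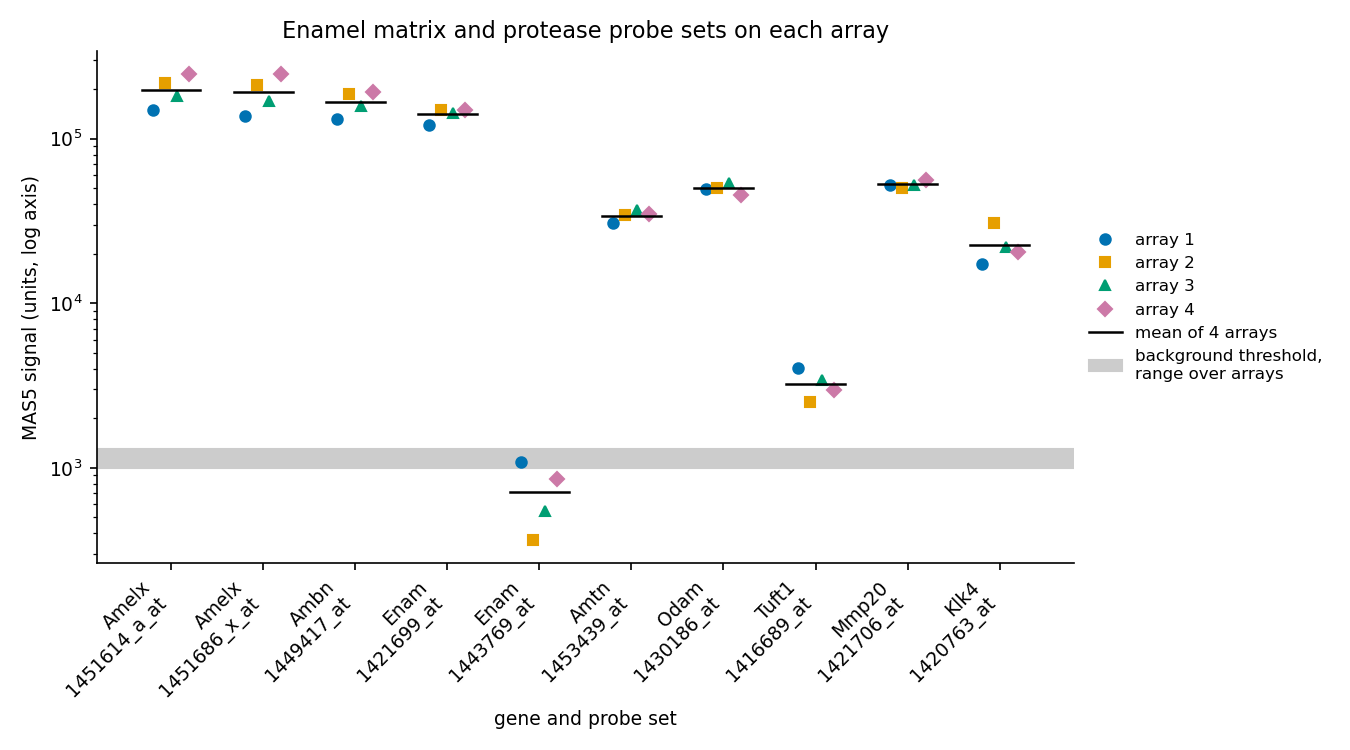
MAS5 signal (y axis, log scale) of each of the 10 probe sets (x axis) on arrays 1 to 4, with the mean as a black line. The grey band spans the background threshold over the arrays, 995.6 to 1295. All points of 9 probe sets lie above the band, and those of Enam 1443769_at lie within or below it.

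Amelx encodes the protein that makes up most of the forming enamel matrix and is spliced into several forms. It lies on chromosome X. Its probe set 1451614_a_at, which reports several transcripts of the gene, had signals of 149117, 217581, 181018 and 246949 on arrays 1 to 4. Array 4 was highest and array 1 lowest, and every array lay far over its own threshold, by 139.8-fold to 198-fold. The mean was 198666 ± 42644 (SD, n = 4), rank 2 of 45101 probe sets by mean log2 signal. The mean log2 signal over the threshold was 7.40 with a standard error of 0.15 (limma adjusted p = 1.86e-15).

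The other Amelx probe set, 1451686_x_at, carries the suffix for probes that can also match other sequences. It had 138185, 212730, 170556 and 247133, with the arrays in the same order, and a mean of 192151 ± 47698. The first probe set divided by the second gave ratios between 0.999 and 1.08 on the 4 arrays, so the pair gave nearly the same signal on each array although both varied widely between arrays. Arhgap6, whose annotated span contains Amelx, was not above background. Its brightest probe set had 1238 ± 262 and exceeded the threshold on 3 arrays.

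Ambn encodes an adhesive matrix protein needed for ameloblasts to stay attached to enamel. Its probe set had signals of 131105, 186635, 158967 and 191863 on arrays 1 to 4, in the order of arrays seen for Amelx. The mean was 167142 ± 28027 (SD, n = 4), at 7.16 log2 units over the threshold with a standard error of 0.14 (limma adjusted p = 1.86e-15).

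Enam encodes the largest of the enamel matrix proteins, and its 2 probe sets disagreed. Probe set 1421699_at had 121945, 150094, 142428 and 150434, all of them 110.0-fold to 137-fold over the threshold of their array, and a mean of 141225 ± 13375 (limma adjusted p = 1.86e-15). Probe set 1443769_at had 1082.5, 364, 551 and 855, with a mean of 713 ± 319. It exceeded the threshold on array 1 only, by 1.09-fold, and was not called by limma (adjusted p = 1.00e+00). On the 4 arrays the first probe set was 113 to 412 times as bright as the second. Which part of the transcript each of them reports was not analysed here.

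Amtn had signals of 30568, 34280, 36857 and 34809 on arrays 1 to 4, a narrow range that was lowest on array 1. The mean was 34128 ± 2621 (SD, n = 4), and each array lay 27.5-fold to 31.2-fold over its threshold (limma adjusted p = 2.72e-15). Odam had 49827, 50430, 53842 and 45363, with array 4 lowest and array 3 highest. The mean was 49866 ± 3484, or 35.8-fold to 50.05-fold over the threshold (limma adjusted p = 2.78e-15). Both genes are also active in the junctional epithelium that seals gum to tooth. Summed over the 7 genes for oral and junctional epithelium, signals ran from 118710 to 139170 on the arrays, with Krt4, Krt6a and Krt13 the brightest and Flg and Krt16 not above background. The part of these cells in the Amtn and Odam signals was not tested.

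Tuft1 encodes tuftelin, an acidic protein first described in enamel and since found in many other tissues. Its signals were 4070, 2509, 3405 and 2981, highest on array 1 and lowest on array 2. The mean was 3241 ± 663 (SD, n = 4), and the arrays lay 2.29-fold to 4.09-fold over the threshold. At 1.46 log2 units over the threshold with a standard error of 0.16 (limma adjusted p = 3.01e-07), it was the member closest to background among the 9 probe sets called.

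Mmp20 encodes enamelysin, the metalloproteinase that trims amelogenin during secretion. Its signals were 52545, 50016, 52635 and 56158. Their SD of log2 deposited signal, 0.07, was the smallest of the 10 probe sets. The mean was 52838 ± 2524 (SD, n = 4), or 40.6-fold to 52.8-fold over the threshold (limma adjusted p = 2.12e-15). The gene lies on chromosome 9 within a row of other metalloproteinase genes, which mostly act on collagen and other connective tissue matrix. Of 8 measured members of that row, 1 was above background, against 51.6% of all genes. It was Mmp13, a collagenase of bone and cartilage, at 8482 ± 705. Mmp10, Mmp12 and Mmp1a were not above background, at 282 ± 72.1, 171 ± 125 and 300.0 ± 158. Mmp7, which was singled out after its values were seen, had 1497 ± 476 and exceeded the threshold on 3 arrays. Without array 4 the count was 2 of 8, with Mmp7 included, against 54.1% of all genes.

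Klk4 encodes the serine protease that clears the remaining matrix in the maturation stage. Its signals were 17270, 30845, 21860 and 20533. Array 2 was the highest, and the other 3 lay between 17270 and 21860. The mean was 22627 ± 5808 (SD, n = 4), or 16.2-fold to 28.1-fold over the threshold (limma adjusted p = 7.52e-14). Klk4 belongs to the kallikrein gene cluster of chromosome 7, whose members serve skin, salivary gland and other epithelia. Of 18 other kallikreins measured, 4 were above background, compared with 51.6% of genes. These were Klk10 at 3266 ± 858, Klk1 at 3018 ± 324, Klk8 at 2849 ± 165 and, named after its value was seen, Klk13 at 1944 ± 355. Klk1 passed by 1 of its 4 probe sets. Klk11, Klk12 and Klk1b1 were not above background, at 1056 ± 277, 168 ± 48.0 and 70.1 ± 7.68. The 6 measured genes nearest to Klk4 on its chromosome were all below the call, with 0 of 6 above background. Several kallikreins of the Klk1 group are near-identical, so their probe sets may share signal.

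**Figure D3:**
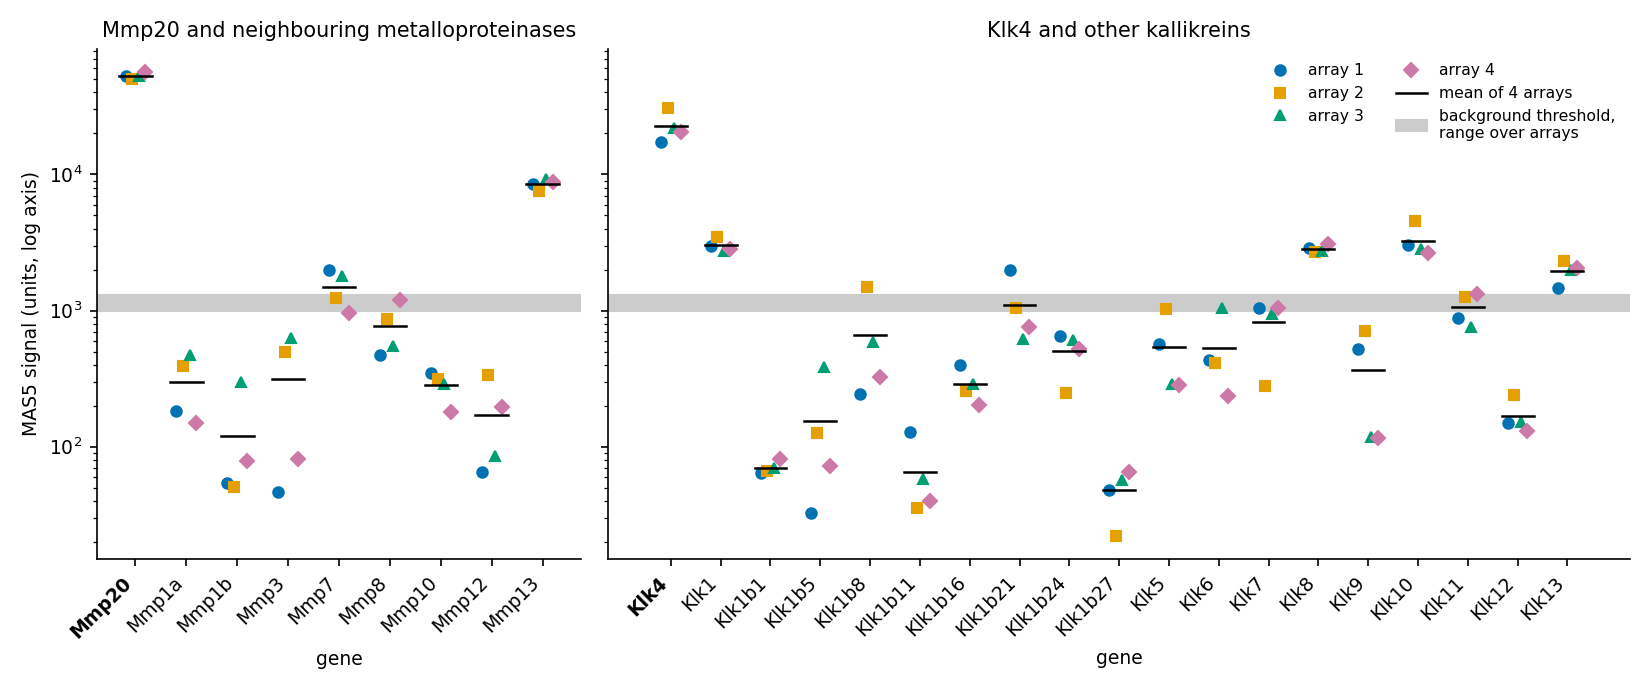
MAS5 signal (y axis, log scale) on arrays 1 to 4 of Mmp20 beside 8 metalloproteinase genes of its chromosomal row (left) and of Klk4 beside 18 other kallikreins (right), 1 gene per position on the x axis, with means as black lines and the background threshold as a grey band. Mmp13 on the left and Klk1, Klk8, Klk10 and Klk13 on the right have all points above the threshold of their array, as Mmp20 and Klk4 do.

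Odam, Amtn, Ambn and Enam lie close together on chromosome 5, in a cluster that also holds the casein genes. These genes belong to the secretory calcium-binding phosphoprotein family, which takes in enamel proteins, milk caseins and the acidic proteins of dentin and bone. In RefSeq (GRCm38.p6), a row of 15 measured genes runs from Csn1s2a through Odam, Amtn, Ambn and Enam to Rufy3, counting the 3 measured neighbours on either side. Of the 11 that are not enamel genes, 4 were above background, against 51.6% of all genes. Csn3, for kappa-casein, follows Odam in the row and had 79019, 91125, 84828 and 96992 on arrays 1 to 4, with a mean of 87991 ± 7775 (SD, n = 4), 65.5-fold to 83.1-fold over the threshold. Its other probe set, 1451851_a_at, had 495 to 555 and exceeded the threshold on 0 arrays, so Csn3 shows the same kind of disagreement as Enam.

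The remaining caseins measured were not above background. Csn1s1, Csn1s2a and Csn1s2b had 790 ± 369, 236 ± 79.0 and 468 ± 159, and exceeded the threshold on 0 arrays each, as did Csn2 at 838 ± 125. Smr2, a gene named for the submaxillary gland that lies between Odam and Amtn, was above background by 1 of its 3 probe sets, at 2395 ± 667. Of the salivary gland list, Klk1 was above background, by 1 of its 4 probe sets. Amy1, Aqp5 and Bpifa2 exceeded the threshold on 0 arrays, at 74.6 ± 11.4, 141 ± 172 and 332 ± 260. The summed signal of the 6 salivary genes was 3272 to 4586, and their part in the Smr2 signal was not tested. Past Enam, Utp3, for a ribosome assembly factor, had 6871 ± 921, and Rufy3 was above background by another probe set than its brightest, which had 1726 ± 443 and passed on 3 arrays.

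**Figure D4:**
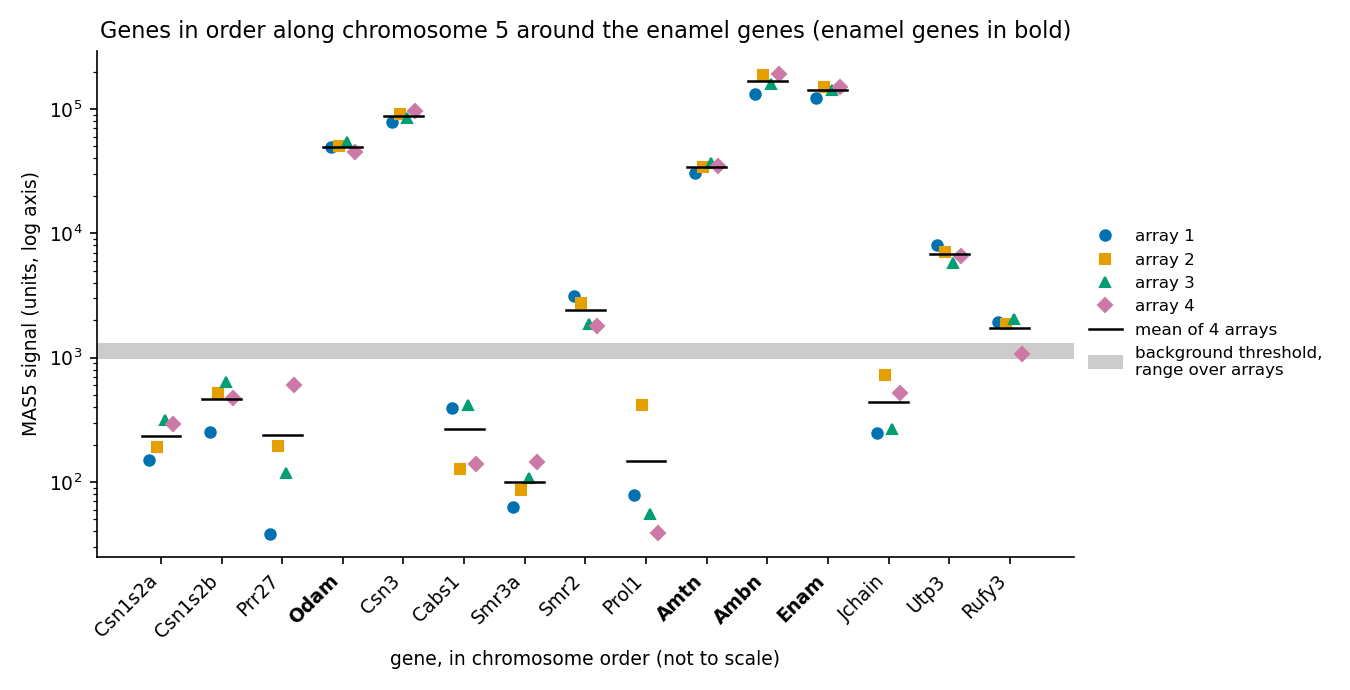
MAS5 signal (y axis, log scale) on arrays 1 to 4 of the 15 measured genes from Csn1s2a to Rufy3, in their order along chromosome 5 (x axis, not to scale), with means as black lines, the enamel genes in bold and the background threshold as a grey band. Odam, Amtn, Ambn and Enam lie far above the band together with Csn3, while Cabs1, Smr3a and Prol1 between them lie below it.

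Over all 8 enamel genes, 35 distinct neighbours were measured among the 3 genes on each side, and 13 of them were above background, against 51.6% of genes. Those next to Amelx and Tuft1 included genes active in most cells, such as Hccs at 5820 ± 610 and Psmb4, a proteasome subunit gene, at 32978 ± 1100.

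Of 13 other genes of the family, its relatives and its clusters, 6 (46.2%) were above background, a share near the 51.6% of all genes. They were led by Sparc at 182924 ± 25344, Dspp at 111371 ± 20102 and Csn3, where Sparc binds collagen and mineral and Dspp gives rise to dentin sialoprotein and phosphoprotein. The median log2 signal of these 13 was 9.70, against 10.69 over all genes. Another list held secretory kinases and possible modifiers of enamel proteins. Not all of its genes act in the secretory route or on enamel proteins. Of its 7 measured genes, 7 passed, against 51.6% of genes, led by Serpinh1, a collagen chaperone gene, at 81358 ± 6456. Fam20c, the kinase that phosphorylates enamel proteins, had 16690 ± 1329, and its partner Fam20a had 13930 ± 1263. Of 11 measured transcription factor genes linked to ameloblasts, 11 passed, with Sp6 at 59832 ± 2728, Satb1 at 43982 ± 2785 and Dlx3 at 23951 ± 1682. Most genes of these lists are active in other dental cells as well, so they do not assign signals to ameloblasts.

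The spread between arrays differed among the enamel genes and followed brightness for the brightest of them. For Amelx 1451614_a_at the SD of log2 signal was 0.32 and for 1451686_x_at 0.37, both above at least 98.1% of the 1000 probe sets nearest in brightness, whose median SD was 0.12. For Ambn the SD was 0.25, against a median of 0.17 for its 100 nearest. For the brighter Enam probe set it was 0.14, below the 0.16 of its 100 nearest. Amelx, Ambn and the brighter Enam probe set all ran in the order array 1, 3, 2, 4 from low to high. The same order was found in 68 of the 100 brightest probe sets, and in 64 of the 96 of these that are not enamel genes, against 6.22% of the 16113 probe sets above background. In the 100 brightest, the median deviation from the mean of a probe set was -0.21, 0.09, -0.05 and 0.19 log2 units on arrays 1 to 4. After quantile normalisation, which gives the arrays the same distribution of signals, the SD was 0.06 and 0.11 for the Amelx probe sets, 0.09 for Ambn and 0.06 for Enam.

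Klk4 did not follow the order of arrays seen for Amelx. Its SD of 0.35 log2 units was larger than that of 97.6% of the 1000 probe sets nearest in brightness, whose median was 0.12, and it was 0.36 after quantile normalisation. Array 2 lay 0.48 above the mean of Klk4 and array 1 lay 0.36 below it, while the median deviation of the nearest probe sets on every array was at most 0.07 from 0. The SD of Klk4 was 0.18 without array 2. Tuft1, at an SD of 0.30, was also little altered by quantile normalisation (0.28). Amtn, Odam and Mmp20 had SDs of 0.11, 0.10 and 0.07, below the median of their nearest probe sets, which was 0.12 in each case. After quantile normalisation Amtn and Odam lay above that median, at 0.12 against 0.11 and 0.15 against 0.11, and Mmp20 below it, at 0.07 against 0.10. With 1 group of 4 arrays of the same pool, other genes could not be ranked by how closely they follow the enamel genes over samples.

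**Figure D5:**
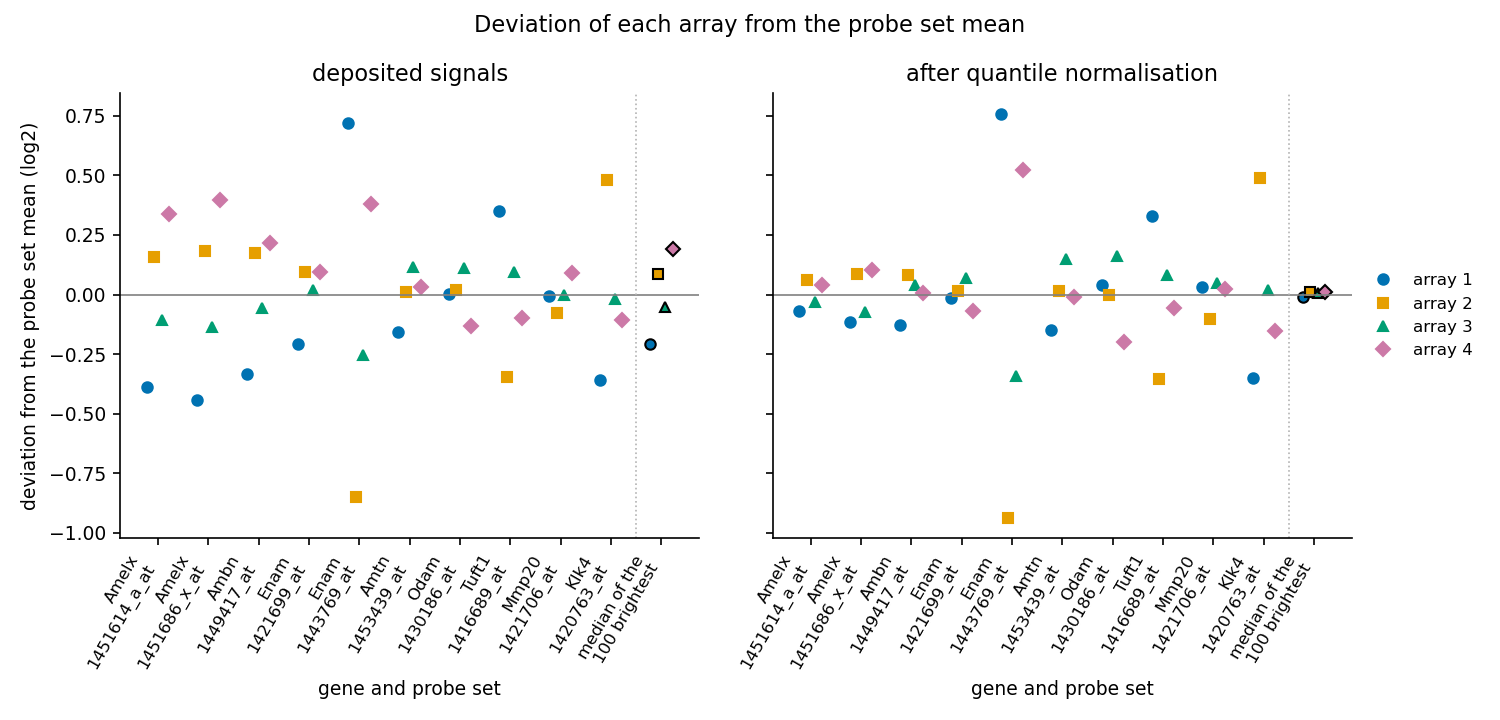
Deviation of each array's log2 signal from the mean of the probe set (y axis) for the 10 probe sets and, right of the dotted line, the median deviation of the 100 brightest probe sets on the array (x axis), with the deposited signals on the left and after quantile normalisation on the right. The Amelx and Ambn points draw together on the right, and those of Klk4 and Tuft1 do not. For the brightest probe sets this is partly built into the method, which assigns values by rank.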

How the data were processed

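The 4 arrays form 1 group, with replicate numbers from the sample titles. The authors' values came from MAS5, per the submitters' processing notes, an algorithm that corrects each matching probe by its mismatched partner. No version or setting is named there. The deposited signal intensity values are linear, and a mean trimmed by 2% at either end was 2500 on all 4 arrays, so a common scaling had been applied. Low MAS5 signals are noisy, and linear scaling leaves differences that depend on brightness. The number of arrays limits the precision.

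Of 45101 probe sets, 64 are controls, some of which also name a gene. In all, 34958 name 1 gene and 932 several, and 9160 that are not controls name none here. A gene is represented by its brightest probe set and is above background if any of its probe sets is. Calls were made with Python 3.11.15 and limma 3.58.1 in R 4.3.3 (intercept model, mean-variance trend, the threshold of each array taken as fixed). On simulated data with 26594 probe sets, 50 each were set 1.5-fold, 2-fold and 4-fold over the threshold. The all-array rule called 88.0%, 100% and 100% of these, and limma 8.00%, 54.0% and 98.0%. The 26394 probe sets not raised had means below the threshold, and the rule called 0.193% of them and limma 0.0%. Probe sets over the threshold were thus far rarer than in the data, where limma called 35.2%. The adjustment is stricter in such a mix, so these limma percentages do not give its sensitivity in the data. The members and lists were chosen with earlier results of these data known. The text names every member, up to 3 members above and 3 not above background of a list (the brightest, and the first in alphabetical order), and selected neighbours. Alternatives were other thresholds and background genes, a call on 3 arrays, quantile normalisation, a pseudocount of 16, a filter on low values, limma without the trend, probe sets without suffixes, the median probe set and leaving out each array. Protein sequences were not used here.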

Additional observations from a re-analysis of the deposited data

Results flagged for a closer look

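In a gap test on 21 sets of 4 signals (the 10 enamel probe sets and the 11 other genes of the chromosome 5 row), 1 set was split by a wide gap between a single array and the rest. By chance about 1 set in 20 is, or 1.05 of 21. It was Rufy3, lower on array 4 than on the others, with the gap taking 0.868 of the whole range of log2 signal. No enamel probe set had a gap over the critical value for 4 values.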

How the results depend on the processing

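Under every alternative that counted all 10 enamel probe sets, 9 of them were above background. Over all probe sets naming a single gene, the share ran from 38.9% to 57.5%. The limma test also called 9 each time, and 31.9% to 49.7% of all those tested, except with the filter on low values. That filter kept only probe sets with a mean over the threshold, so Enam 1443769_at was left out and 9 of 9 were called. Of all probe sets it kept, 89.7% were called, so that setting adds little. Leaving out each array gave 9 by either call. All 8 genes passed under every alternative except that without the suffixed probe sets, where Amelx has none and 7 of 7 passed. The share of all genes above background ran from 39.3% to 65.3% over these alternatives. The highest adjusted p of the 9 came from limma without the trend, 1.34e-03 for Tuft1 and at most 2.46e-05 for the others. The lowest limma adjusted p for Tuft1, 1.22e-21, came from the filter on low values. That filter selects on the same mean that limma then tests, so this value adds no support. Enam 1443769_at, at -0.82 log2 units against the threshold, changed sign to 0.40 with the 75th percentile as threshold, and its limma adjusted p was then 2.45e-01, the lowest of its range up to 1.00e+00. That percentile lowers the threshold by construction. Of 8 metalloproteinases near Mmp20, 3 were above background with the 75th percentile and 2 with a call on at least 3 arrays. The share of all genes was 65.3% and 55.9% at these settings. Leaving out each array gave 1 to 2 of the 8, against 51.8% to 54.1% of all genes. Signals near the threshold cannot show whether a gene was expressed.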
